A study of Rattus norvegicus with 12 samples.

Results

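Chemokines, interleukins and their receptors were followed as the probe sets with exactly 1 gene symbol that names a chemokine (Ccl, Cxcl, Cx3cl or Xcl), a chemokine receptor (Ccr, Cxcr, Cx3cr or Xcr), or a gene whose symbol starts with Il and a digit. They number 117 of the 31042 probe sets tested and stand for 92 of 14217 genes. By role they are 38 probe sets of chemokine ligands (29 genes), 15 of chemokine receptors (12 genes), 26 of interleukins (23 genes), 35 of interleukin receptors (25 genes) and 3 of antagonists or binding proteins (Il1rn, Il36rn and Il18bp). Il1r2, Il13ra2 and Il22ra2, though decoys or a soluble inhibitor, count here as interleukin receptors by their symbols. All 117 were tested, with no filter on low values. Chemokines are small secreted proteins that guide the movement of leukocytes and their progenitors, and they act through G protein-coupled receptors on the target cell. Interleukins are a wider class of secreted signals between immune and stromal cells, and most act through paired receptor chains at the cell surface. In bone, several members of both classes attract or hold hematopoietic progenitors and osteoclast precursors and change how osteoblasts and osteoclasts form.

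RNA came from the right tibia of female rats after the marrow had been aspirated. The rats ate their diets from postnatal day 21 to day 34. A casein diet was the control (CAS), soy protein isolate took the place of casein in the SPI group, the E2 group ate casein and received subcutaneous 17β-estradiol, and the SPI+E2 group had both. Each group has 3 arrays, and each array is a pool of RNA from several rats, so the spread between arrays is smaller than that between animals would be. Values are log2 expression centred on the median of the 12 arrays for each probe set. A value therefore says how far an array lies from that median, and neither the level of a gene nor its presence above background can be read from it. For the same reason the tissue could not be checked against the presence of bone markers.

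Within groups, the correlation of arrays over all probe sets lay between 0.279 and 0.542. The median SD within a group was 0.115 for the members and 0.0995 for all probe sets, and the median SE of a difference between groups was 0.0868 and 0.0779. The first SPI array lay farthest from its group (SD 0.129 about the group mean, against 0.0755 to 0.106 on the other 11 arrays). Without it 14, 14 and 12 members passed the test with SPI, E2 and SPI+E2. The 3 CAS arrays stood apart from the other 9 in sex-linked genes. The Y-linked gene Eif2s3y read -2.20 to -1.82 with CAS and -0.37 to 0.86 on the other arrays, and all 4 probe sets of Xist were higher on every CAS array than on any other. What sets the CAS arrays apart in this way and the treatments cannot be told apart in the comparisons against CAS and in the interaction. The comparisons among SPI, E2 and SPI+E2 do not use the CAS arrays' means.

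Below, changes are differences of group means on the log2 scale, with ± for the SE of the difference. CAS 1 is the first CAS array, and likewise for the others. The calls against CAS, the 5 largest differences between SPI and E2 and the interaction calls were tried again under 21 alternatives (20 for the interaction), which are other settings of the analysis and each of the 12 arrays left out in turn. The other calls between treated groups were not tried one by one. A call was lost where its adjusted p was no longer under 0.05. The setting that used the unadjusted p could not lose a call, since an adjusted p is never below the unadjusted one.

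Among the 117 probe sets, 31 (26.5%) differed among the 4 groups by limma's F test (adjusted p under 0.05 over all probe sets), against 25.2% of all probe sets. They stand for 25 genes. They were 10 of 38 probe sets of chemokine ligands, 5 of 15 of chemokine receptors, 5 of 26 of interleukins, 11 of 35 of interleukin receptors and 0 of 3 of antagonists or binding proteins, of which 1 had an unadjusted p under 0.05. The share of members that differed was thus close to the background.

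With SPI, 12 of 117 probe sets were higher than with CAS (10.3%, against 8.25% of all probe sets) and 3 were lower (2.56%, against 9.07%). With E2, 5 were higher (4.27%, against 4.99%) and 8 were lower (6.84%, against 4.36%). With SPI+E2, 8 were higher (6.84%, against 4.14%) and 3 were lower (2.56%, against 4.33%). All 3 E2 falls among chemokine receptors were probe sets of Cxcr4. The median log2 change of the members was 0.055, -0.0044 and 0.057 in these comparisons, where the medians of all probe sets were 0.0059, -0.0067 and 0.019. Changes ran from -0.50 to 0.41 with SPI, from -0.49 to 0.56 with E2 and from -0.60 to 0.67 with SPI+E2.

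**Figure D1:**
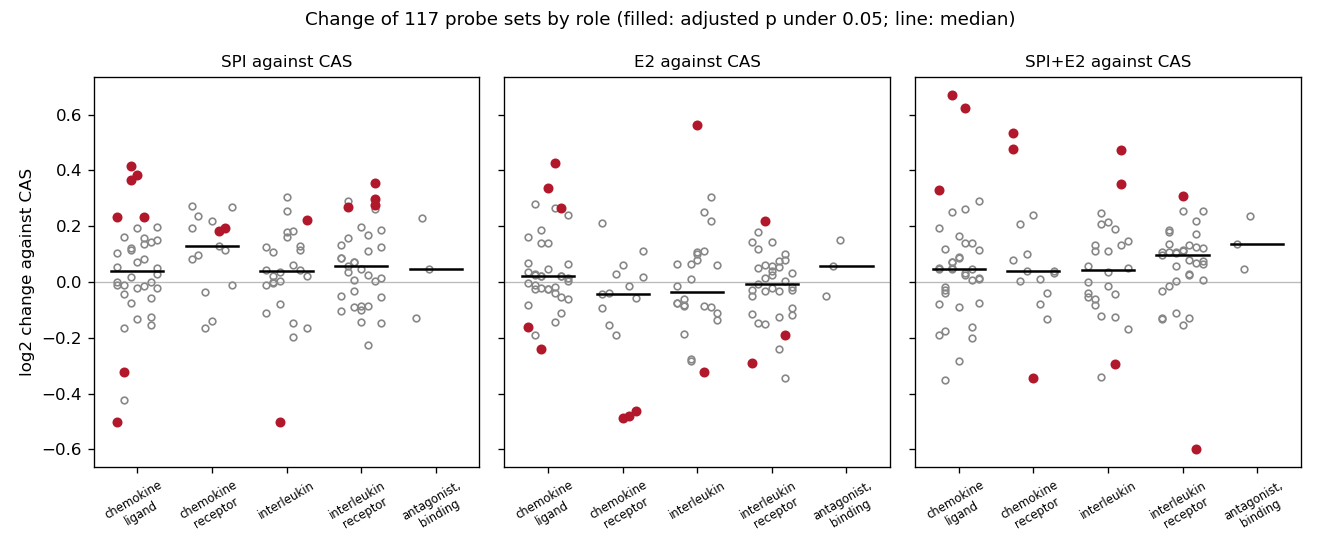
Log2 change against CAS (vertical axis) of each of the 117 probe sets, grouped by role, for SPI, E2 and SPI+E2. Filled points passed the test (adjusted p under 0.05), open points did not, and bars are medians. The chemokine receptors that fell with E2 are the 3 probe sets of Cxcr4, and the highest points with SPI+E2 are the chemokines Ccl9 (0.67) and Cxcl14 (0.62).

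With the values read as log2, no member reached 1.5-fold with SPI (0 of 117, against 2.43% of all probe sets) or with E2 (0 of 117, against 1.64%). With SPI+E2, 3 did, against 0.474% of all probe sets. These were Ccl9 (1.59-fold higher), Cxcl14 (1.54-fold higher) and a probe set of Il7r (1.51-fold lower). The fold count carries no test. The base of the logarithm is not given in the table, and with natural logarithms 4, 5 and 6 members reached 1.5-fold with SPI, E2 and SPI+E2. The count with SPI+E2 was 1 without SPI+E2 2 and 2 without CAS 2, that with SPI was 1 without CAS 2 or without SPI 1, and that with E2 was 1 without CAS 3 or without E2 2.

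**Figure D2:**
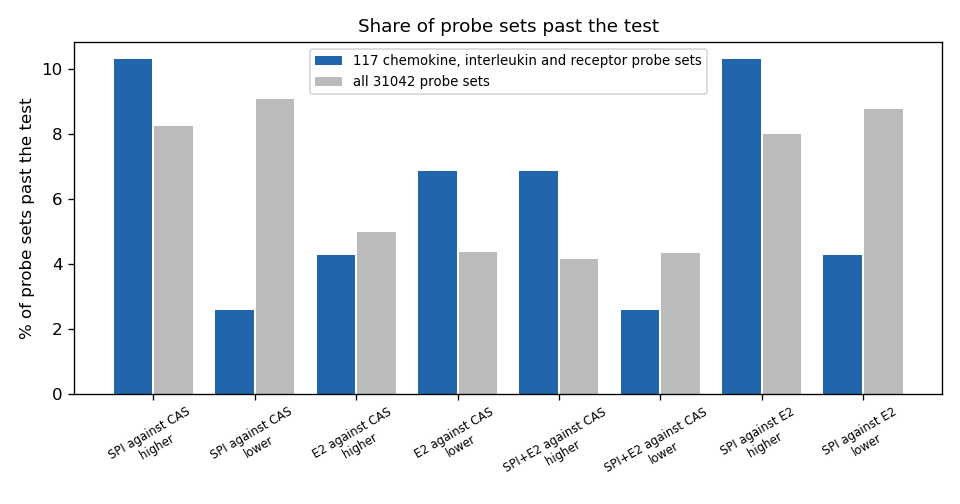
Share of probe sets past the test (vertical axis, %) in each comparison and direction, for the 117 chemokine, interleukin and receptor probe sets and for all 31042. The shares of members that were lower with SPI (2.56% against 9.07%) and lower in SPI than in E2 (4.27% against 8.75%) are below those of all probe sets, and the other pairs of bars differ by less.

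Cxcr4, the receptor that keeps hematopoietic progenitors and B cell precursors in the marrow, and its ligand Cxcl12, a product of marrow stromal cells, were both lower with E2 than with CAS. Cxcr4 has 3 probe sets and all passed. The first (probe set 1373661_a_at) read -0.00, 0.00 and 0.02 with CAS, 0.16, 0.20 and 0.21 with SPI, -0.52, -0.48 and -0.43 with E2, and 0.00, -0.15 and -0.07 with SPI+E2. Its 3 E2 arrays lay below, and its 3 SPI arrays above, every other array. The change was -0.48 ± 0.050 (adjusted p = 7.02e-05) with E2, 0.18 ± 0.050 (adjusted p = 0.0266) with SPI and -0.077 ± 0.050 (adjusted p = 0.391) with SPI+E2. SPI and E2 differed by 0.66 ± 0.050 (adjusted p = 1.23e-05) in this probe set, a comparison that does not use the mean of the CAS arrays, and the adjusted p was 0.00145 in a fit of the SPI and E2 arrays alone. The second probe set (1389244_x_at) gave the same order, with changes of 0.19 ± 0.047 (adjusted p = 0.0153) with SPI and -0.46 ± 0.047 (adjusted p = 6.23e-05) with E2. Both of these rises with SPI missed the test when CAS 1 was left out, after quantile normalization, in a fit of SPI and CAS alone, and in the mean of the 3 probe sets, and the first also without CAS 2, CAS 3, SPI 2 or SPI 3.

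The last Cxcr4 probe set (1370097_a_at) differed in the SPI groups. It read 0.12, 0.20 and 0.27 with CAS, 0.06, 0.02 and 0.09 with SPI, -0.35, -0.29 and -0.23 with E2, and -0.20, -0.22 and -0.02 with SPI+E2. The E2 arrays were again the lowest and the CAS arrays the highest, with no overlap between CAS and any treated group. It fell by 0.49 ± 0.063 with E2 (adjusted p = 0.000358) and by 0.34 ± 0.063 with SPI+E2 (adjusted p = 0.0066), and the change with SPI was -0.14 ± 0.063 (adjusted p = 0.163). Which transcripts each probe set reads was not examined.

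Cxcl12 moved less. Its probe set 1388583_at read -0.05, -0.05 and 0.02 with CAS, 0.03, 0.10 and 0.14 with SPI, -0.27, -0.24 and -0.29 with E2, and 0.03, 0.03 and -0.02 with SPI+E2. Every E2 array was below every other array. The change was -0.24 ± 0.048 (adjusted p = 0.00665) with E2, and SPI minus E2 was 0.36 ± 0.048 (adjusted p = 0.000372). Probe set 1369633_at fell by 0.16 with E2 (adjusted p = 0.0329), a call lost when any CAS or any E2 array was left out. Probe set 1387655_at disagreed, since it fell by 0.32 with SPI (adjusted p = 0.0137), a call lost without CAS 3 and in the mean of the 3 probe sets, and changed by -0.19 ± 0.078 (adjusted p = 0.18) with E2.

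B cell precursors carry Cxcr4, and B cell markers changed too. Of 4 B cell markers measured, 3 were lower with E2 (Ms4a1 by 0.64, Blnk by 0.57 and Cd79b by 0.51) and 2 were higher with SPI. The mean of the list ran from -0.41 to -0.28 on the E2 arrays, from 0.34 to 0.35 on the SPI arrays, from -0.19 to -0.079 on the SPI+E2 arrays and from 0.090 to 0.11 on the CAS arrays. Of all genes, 25.4%, 14.2% and 12.9% passed with SPI, E2 and SPI+E2. Among 7 markers of marrow stroma and osteoblasts, the main source of Cxcl12, 0 passed limma's test in any of the 3 comparisons, with 0, 1 and 1 at an unadjusted p under 0.05 with SPI, E2 and SPI+E2. In these bulk samples fewer cells of a type and less RNA per cell cannot be told apart, the centred values do not show whether a marker is near 0, and the part of the B cell list in the Cxcr4 change was not tested.

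The stretches upstream of Cxcr4 and Cxcl12 are shown since both genes were lower with E2. They are the 250 bases before the annotated start of each gene, written 5′ to 3′ on the gene's strand, from RefSeq on build GRCr8 (Cxcr4 chr13:42634289-42634538, minus strand, Cxcl12 chr4:152060531-152060780, plus strand). Capitals mark matches, on either strand, to the letters of a GC box (GGGCGG) or a TATA box (TATAAA).
Cxcr4: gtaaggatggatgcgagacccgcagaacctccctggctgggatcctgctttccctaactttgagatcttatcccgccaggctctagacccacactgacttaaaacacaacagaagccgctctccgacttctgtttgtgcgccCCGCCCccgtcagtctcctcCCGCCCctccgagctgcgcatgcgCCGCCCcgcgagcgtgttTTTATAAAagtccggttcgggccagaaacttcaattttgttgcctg
Cxcl12: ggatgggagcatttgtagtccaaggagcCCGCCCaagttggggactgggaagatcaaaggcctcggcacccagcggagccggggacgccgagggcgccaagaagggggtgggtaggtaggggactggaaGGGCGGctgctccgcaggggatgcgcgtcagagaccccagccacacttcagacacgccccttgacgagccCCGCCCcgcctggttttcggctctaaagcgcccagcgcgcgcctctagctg
The Cxcr4 stretch held 3 GC boxes and 2 TATA box matches that overlap on opposite strands, at 57.6% GC, and the Cxcl12 stretch held 3 GC boxes at 67.6% GC. Neither held the full estrogen response element (GGTCANNNTGACC). Among all 33469 upstream stretches of this length in the table, 30.5% held a GC box, 12.9% a TATA box and 0.0239% the full estrogen response element. Of the 92 genes, 70 had a stretch in the table (72 stretches), and 0 of these 72 held that element. A match is a description of letters and not a site of binding.

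Ccl9 and Ccl6, neighbouring CC chemokine genes of the myeloid lineage, and Ccr1, the receptor they act on, were highest in SPI+E2. Ccl9 read -0.16, -0.42 and -0.25 with CAS, 0.04, 0.13 and 0.23 with SPI, -0.10, -0.15 and -0.04 with E2, and 0.34, 0.36 and 0.47 with SPI+E2. The SPI+E2 arrays lay above all others and the CAS arrays below all others. The change was 0.67 ± 0.074 (adjusted p = 0.000297) with SPI+E2, 0.41 ± 0.074 (adjusted p = 0.00255) with SPI and 0.18 ± 0.074 (adjusted p = 0.176) with E2. Ccl6 read -0.04, -0.22 and -0.10 with CAS, 0.21, 0.02 and 0.10 with SPI, -0.02, -0.24 and -0.11 with E2, and 0.17, 0.25 and 0.21 with SPI+E2. Every SPI and every SPI+E2 array lay above every CAS and every E2 array. The SPI and SPI+E2 arrays of Ccl6 overlapped, and SPI+E2 minus SPI was 0.10 ± 0.070 (adjusted p = 0.386 over genes). Ccl6 rose by 0.33 with SPI+E2 (adjusted p = 0.0164), a call lost without CAS 2, CAS 3 or SPI+E2 2, and its rise of 0.23 with SPI (adjusted p = 0.049) was lost in 15 of 21 alternatives, among them any CAS array left out.

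Ccr1 stood out in 1 group. It read -0.01, -0.08 and 0.01 with CAS, -0.09, 0.11 and 0.15 with SPI, -0.05, -0.09 and -0.07 with E2, and 0.54, 0.43 and 0.39 with SPI+E2. The SPI+E2 arrays were above every other array and the other 3 groups overlapped. Ccr1 rose by 0.48 ± 0.067 with SPI+E2 against CAS (adjusted p = 0.0013), with changes of 0.083 ± 0.067 (adjusted p = 0.448) for SPI and -0.044 ± 0.067 (adjusted p = 0.806) for E2 alone. SPI+E2 was also higher than SPI by 0.39 (adjusted p = 0.00238) and higher than E2 by 0.52 (adjusted p = 0.000558). Of the other genes of these runs on the chromosomes, Ccl3, which also acts on Ccr1, changed by 0.26 ± 0.084 (adjusted p = 0.0801) with SPI+E2. Ccl4 changed by -0.16 ± 0.091 (adjusted p = 0.315), and Ccr2, a monocyte receptor in the run of Ccr1, by 0.041 ± 0.083 (adjusted p = 0.813). Ccl5 changed by 0.29 (adjusted p = 0.0731 over genes) and Ccr3, between Ccr1 and Ccr2, by 0.24 (adjusted p = 0.425 over genes).

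Cxcr1, a neutrophil receptor for interleukin-8 type chemokines, was also higher with SPI+E2 (0.53 ± 0.13, adjusted p = 0.0267). Its arrays read -0.09, -0.26 and -0.31 with CAS, 0.23, -0.20 and 0.12 with SPI, -0.02, 0.02 and -0.02 with E2, and 0.17, 0.63 and 0.16 with SPI+E2. The second SPI+E2 array was the highest of the 12, and the change missed the test without it, without CAS 2 and without CAS 3. Some myeloid markers were higher in the same group. Of 5 neutrophil markers measured, 3 rose with SPI+E2 (Lcn2 by 0.83, S100a8 by 0.41 and S100a9 by 0.39), where the list mean ran from 0.25 to 0.36 against -0.13 to -0.061 with CAS. The same list had 3 rises with SPI and 3 falls with E2. Of 10 macrophage and monocyte markers, 3 rose with SPI+E2 (Cd68 by 0.46, Csf1r by 0.15 and Lyz2 by 0.13) and 0 fell, while Cd14 changed by -0.11, Adgre1 by -0.12, Mrc1 by -0.09 and C1qa by -0.060 and did not pass, with list means from 0.071 to 0.12 against -0.019 to 0.019 with CAS. Of 5 osteoclast markers 3 rose with SPI+E2, with list means from 0.13 to 0.15 against -0.083 to -0.028. Of all genes, 12.9% passed with SPI+E2, 25.4% with SPI and 14.2% with E2. The part of these lists in the rises of Ccl9, Ccl6, Ccr1 and Cxcr1 was not tested.

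Cxcl14, a CXC chemokine of epithelia and stroma, rose in 1 of its 2 probe sets in all 3 comparisons against CAS. Probe set 1388485_at read -0.34, -0.33 and -0.27 with CAS, -0.11, -0.09 and -0.05 with SPI, 0.05, 0.07 and 0.23 with E2, and 0.22, 0.39 and 0.33 with SPI+E2. The CAS arrays were the lowest 3 of the 12 and the SPI arrays the next 3. The change was 0.23 ± 0.062 (adjusted p = 0.0225) with SPI, 0.43 ± 0.062 (adjusted p = 0.000764) with E2 and 0.62 ± 0.062 (adjusted p = 0.000144) with SPI+E2. SPI+E2 was higher than SPI by 0.39 (adjusted p = 0.00145). The call with SPI was lost without CAS 1, CAS 2, SPI 2 or SPI 3, and the 3 comparisons share the CAS arrays. The other Cxcl14 probe set (1396129_at) changed by -0.0011 ± 0.068 (adjusted p = 0.995), 0.023 ± 0.068 (adjusted p = 0.916) and 0.14 ± 0.068 (adjusted p = 0.241), so the rise was not seen in both.

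The stretches upstream of Ccl9 and Cxcl14 are shown as those of the chemokine genes with the largest rises with SPI+E2, again 250 bases before the start from RefSeq on GRCr8 (Ccl9 chr10:68868878-68869127, minus strand, Cxcl14 chr17:8322900-8323149, plus strand). Capitals mark matches on either strand to the NF-kB motif, an AP-1 motif (TGANTCA), a GC box or a TATA box.
Ccl9: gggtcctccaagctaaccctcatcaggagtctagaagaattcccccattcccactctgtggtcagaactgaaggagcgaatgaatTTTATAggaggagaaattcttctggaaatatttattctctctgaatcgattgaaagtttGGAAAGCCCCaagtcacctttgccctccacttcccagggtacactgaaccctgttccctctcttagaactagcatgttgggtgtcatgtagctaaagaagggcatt
Cxcl14: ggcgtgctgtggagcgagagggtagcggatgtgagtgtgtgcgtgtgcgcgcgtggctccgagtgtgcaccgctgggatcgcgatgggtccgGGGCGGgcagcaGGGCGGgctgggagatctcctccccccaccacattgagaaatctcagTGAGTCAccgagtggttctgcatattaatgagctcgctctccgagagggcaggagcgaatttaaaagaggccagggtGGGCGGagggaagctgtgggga
Ccl9 held 1 NF-kB match and 1 TATA box at 45.6% GC, and Cxcl14 held 1 AP-1 match and 3 GC boxes at 63.2% GC. An NF-kB match stood in 19.4% of the 72 members' stretches and in 6.33% of all, an AP-1 match in 12.5% and 6.34%, and a STAT motif (TTCNNNGAA) in 8.33% and 7.67%. Median GC was 48.8% in the members and 51.2% in all. Among the 20 stretches of genes that differed among the groups, 1 held an NF-kB match (5%), against 13 of the other 52 (25%).

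Cx3cl1 (fractalkine), a membrane-bound chemokine of neurons and endothelium, was highest with SPI. It read -0.13, -0.12 and -0.13 with CAS, 0.27, 0.30 and 0.20 with SPI, -0.01, 0.01 and 0.04 with E2, and -0.03, -0.09 and 0.01 with SPI+E2. The SPI arrays lay above all others, and the CAS arrays below all others. Cx3cl1 rose by 0.38 ± 0.047 with SPI (adjusted p = 0.00018), changed by 0.14 ± 0.047 (adjusted p = 0.0925) with E2 and by 0.091 ± 0.047 (adjusted p = 0.271) with SPI+E2, and fell by 0.29 when SPI+E2 was set against SPI (adjusted p = 0.00162). Its receptor Cx3cr1 changed by -0.012, 0.019 and 0.038 and passed in none of these. Neuron markers were higher with SPI (8 of 8), E2 (8 of 8) and SPI+E2 (7 of 8), with list means from 0.44 to 0.46, 0.20 to 0.24 and -0.25 to -0.23 against -0.51 to -0.46 with CAS. Among 6 endothelial markers 0 rose and 2 fell with SPI. With SPI, 25.4% of all genes passed. The part of the neuron list in the Cx3cl1 rise was not tested.

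Ccl2 (MCP-1), which recruits monocytes and osteoclast precursors, rose with E2 on the casein diet and not on the SPI diet. It read 0.09, -0.02 and 0.02 with CAS, -0.12, -0.26 and 0.06 with SPI, 0.43, 0.24 and 0.43 with E2, and -0.20, -0.33 and -0.24 with SPI+E2. The E2 arrays lay above all others and the SPI+E2 arrays below all CAS and E2 arrays. The change was 0.34 ± 0.081 (adjusted p = 0.0208) with E2 and -0.28 ± 0.081 (adjusted p = 0.0521) with SPI+E2, and SPI+E2 was lower than E2 by 0.62 ± 0.081 (adjusted p = 0.00062). The call with E2 was lost when CAS 2, CAS 3, E2 1 or E2 3 was left out. Ccr2, its receptor, changed by -0.19 ± 0.083 (adjusted p = 0.218) with E2. Ccl7 and Ccl11, in the same run of genes on the chromosome, changed by 0.28 and 0.16 with E2 and did not pass.

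**Figure D3:**
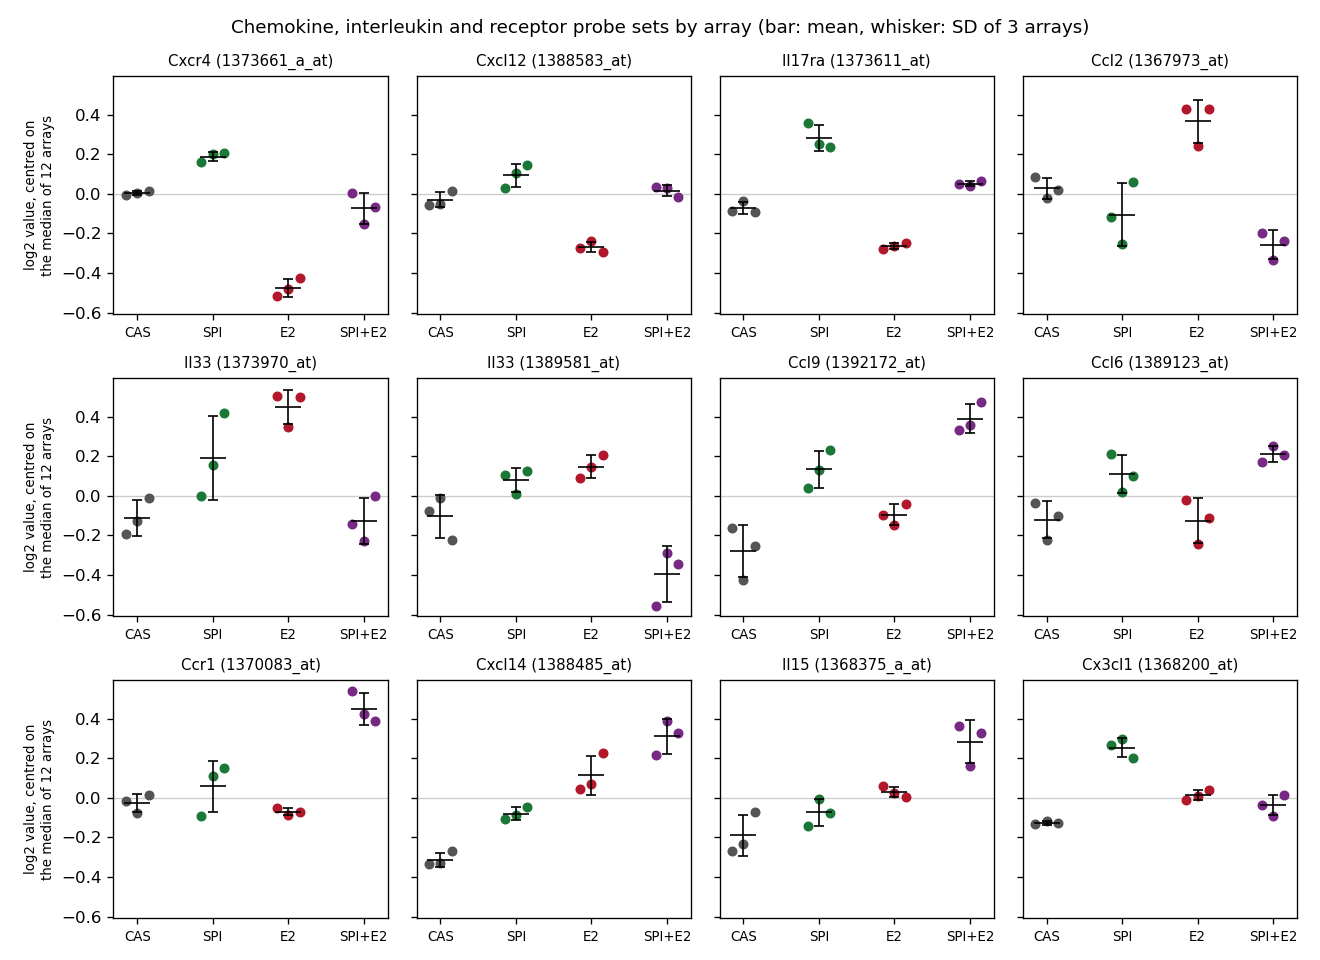
Centred log2 value (vertical axis) of 12 probe sets on each array of CAS, SPI, E2 and SPI+E2, with the mean and SD of 3 arrays. Cxcr4, Cxcl12 and Il17ra were lowest with E2, Ccl2 and Il33 (1373970_at) highest with E2, Cx3cl1 highest with SPI, and Ccl9, Ccr1, Cxcl14 and Il15 highest with SPI+E2.

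Other chemokines changed in 1 comparison with CAS each. With SPI, Ccl27, a skin chemokine, rose by 0.36 ± 0.099 (adjusted p = 0.0249), a call lost without CAS 2, CAS 3, SPI 2 or SPI 3. Cxcl9, an interferon-induced ligand of Cxcr3, a chemokine receptor of T cells, fell by 0.50 ± 0.12 (adjusted p = 0.0135). The Cxcl9 arrays read 0.40, -0.01 and 0.12 with CAS, -0.09, -0.52 and -0.40 with SPI, 0.05, 0.29 and 0.28 with E2, and -0.03, -0.04 and 0.01 with SPI+E2. SPI 1 was close to the CAS range while SPI 2 and SPI 3 were well below it. The fall missed the test without CAS 1 or SPI 2, while the difference between SPI and E2 (-0.54 ± 0.12, adjusted p = 0.00998) passed in all 21 alternatives. Cxcr3 changed by -0.17 ± 0.078 (adjusted p = 0.178) with SPI. With E2, Ccl21, a ligand that draws lymphocytes and dendritic cells to lymphoid tissue, rose by 0.27 ± 0.075 (adjusted p = 0.047), a call lost in 13 of 21 alternatives, among them CAS 1, CAS 3 or any E2 array left out. The neutrophil attractants Cxcl1, Cxcl2, Cxcl3 and Cxcl6 and the interferon-induced Cxcl10 and Cxcl11 passed in no comparison against CAS.

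Il33, an alarmin of the interleukin-1 family held in the nuclei of stromal and endothelial cells, showed the largest change with E2 among the 117 probe sets. Probe set 1373970_at read -0.19, -0.13 and -0.01 with CAS, 0.00, 0.16 and 0.42 with SPI, 0.50, 0.35 and 0.50 with E2, and -0.14, -0.23 and -0.00 with SPI+E2. The E2 arrays were high, SPI 3 overlapped them, and the CAS and SPI+E2 arrays lay together at the bottom. It rose by 0.56 ± 0.10 with E2 (adjusted p = 0.00337), changed by 0.30 ± 0.10 (adjusted p = 0.0583) with SPI and by -0.015 ± 0.10 (adjusted p = 0.951) with SPI+E2. Probe set 1389581_at read -0.08, -0.01 and -0.22 with CAS, 0.10, 0.01 and 0.13 with SPI, 0.09, 0.14 and 0.21 with E2, and -0.55, -0.29 and -0.34 with SPI+E2. Here the SPI+E2 arrays were below all others. The change was 0.25 ± 0.077 (adjusted p = 0.0702) with E2 and -0.29 ± 0.077 (adjusted p = 0.0379) with SPI+E2, the last lost in 10 of 21 alternatives, among them CAS 1, CAS 2, SPI+E2 1 or SPI+E2 3 left out. Both probe sets were lower in SPI+E2 than in E2, by 0.58 (adjusted p = 0.00389) and 0.54 (adjusted p = 0.00115). Schwann cell markers were high in SPI (6 of 6 higher than CAS) and E2 (5 of 6) and not in SPI+E2 (1 higher and 2 lower of 6). Of all genes, 25.4%, 14.2% and 12.9% passed with SPI, E2 and SPI+E2. The Schwann list means ran from 0.47 to 0.50, 0.307 to 0.313 and -0.37 to -0.32 against -0.35 to -0.32 with CAS. Of 6 endothelial markers, 2 were lower with SPI and 1 with E2, and 1 was higher with SPI+E2. Among 7 markers of marrow stroma and osteoblasts, 0 passed limma's test with SPI, E2 or SPI+E2 (0, 1 and 1 at an unadjusted p under 0.05). The part of these lists in the Il33 values was not tested. Il1rl1, the receptor of Il33, has 2 probe sets, and neither passed in any comparison against CAS.

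Il15, a survival factor of NK and memory T cells, rose with SPI+E2. It read -0.27, -0.23 and -0.07 with CAS, -0.14, -0.00 and -0.07 with SPI, 0.06, 0.03 and 0.00 with E2, and 0.36, 0.16 and 0.33 with SPI+E2. The SPI+E2 arrays were the highest 3. The change was 0.47 ± 0.069 (adjusted p = 0.00159) with SPI+E2, 0.22 ± 0.069 (adjusted p = 0.075) with E2 and 0.12 ± 0.069 (adjusted p = 0.292) with SPI. Of 14 T and NK cell markers, 2 rose and 3 fell with SPI+E2, where 12.9% of all genes passed. Il1b, an inflammatory cytokine of myeloid cells that stimulates bone resorption, rose by 0.35 ± 0.099 (adjusted p = 0.049) with SPI+E2, a call lost in 11 of 21 alternatives, among them any CAS or SPI+E2 array left out. Its relative Il1a, with 2 probe sets, passed in none of the comparisons against CAS.

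Il12a, the p35 chain of interleukin-12, fell with SPI. It read 0.34, 0.29 and 0.35 with CAS, -0.09, -0.40 and -0.03 with SPI, 0.03, 0.26 and -0.13 with E2, and -0.02, 0.02 and -0.04 with SPI+E2. All 3 CAS arrays were above all 9 treated arrays. The change was -0.50 ± 0.10 (adjusted p = 0.00575) with SPI, -0.28 ± 0.10 (adjusted p = 0.141) with E2 and -0.34 ± 0.10 (adjusted p = 0.0641) with SPI+E2. Il7, the stromal growth factor of lymphoid precursors, fell by 0.32 ± 0.087 with E2 in 1 of its 2 probe sets (1369208_at, adjusted p = 0.0379), a call lost in 10 of 21 alternatives, among them any CAS array, E2 2 or E2 3 left out, and changed by 0.078 ± 0.086 (adjusted p = 0.711) in the other. Il16, a ligand of CD4, rose by 0.22 ± 0.065 (adjusted p = 0.0355) with SPI, a call lost without any 1 CAS array, SPI 1 or SPI 2. Il6, which drives osteoclast formation through stromal cells, changed by 0.035, 0.063 and 0.25, and Il11, an osteoclast and osteoblast factor of the same family, by -0.0027, -0.19 and 0.11 with SPI, E2 and SPI+E2. Neither passed. The anti-inflammatory Il10 changed by -0.011, 0.063 and 0.058, and also did not pass.

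Il17ra, the shared chain of the receptors for interleukin-17 cytokines, moved in opposite directions with SPI and E2. It read -0.09, -0.04 and -0.09 with CAS, 0.36, 0.25 and 0.24 with SPI, -0.28, -0.26 and -0.25 with E2, and 0.05, 0.04 and 0.07 with SPI+E2. The 4 groups did not overlap, in the order E2, CAS, SPI+E2 and SPI from low to high. The change was 0.35 ± 0.047 (adjusted p = 0.000315) with SPI, -0.19 ± 0.047 (adjusted p = 0.0227) with E2 and 0.12 ± 0.047 (adjusted p = 0.129) with SPI+E2, and SPI minus E2 was 0.54 ± 0.047 (adjusted p = 2.49e-05). The fall with E2 was lost when any CAS or any E2 array was left out. Il17re, a chain of the interleukin-17C receptor, rose by 0.27 ± 0.062 (adjusted p = 0.0113) with SPI in 1 of its 2 probe sets, a call lost without CAS 3 and in the mean of both. The ligands Il17b and Il17f did not pass in any comparison against CAS.

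Il1r2, a decoy receptor that binds interleukin-1 without signalling, rose by 0.30 ± 0.071 with SPI (adjusted p = 0.0137), a call lost without CAS 3. Its values were -0.05, -0.02 and -0.23 with CAS, 0.11, 0.22 and 0.26 with SPI, -0.08, -0.04 and -0.17 with E2, and 0.19, 0.15 and 0.02 with SPI+E2. The SPI arrays lay above all CAS and all E2 arrays. Il22ra2, a soluble inhibitor of interleukin-22, rose by 0.28 ± 0.060 with SPI (adjusted p = 0.00805). Its values were -0.16, -0.05 and -0.14 with CAS, 0.17, 0.14 and 0.17 with SPI, -0.03, -0.07 and 0.05 with E2, and 0.17, 0.03 and -0.03 with SPI+E2, and SPI and CAS arrays did not overlap. Il13ra2, the decoy receptor of interleukin-13, changed by -0.23 ± 0.088 (adjusted p = 0.106) and Il18bp, which binds interleukin-18, by -0.13 (adjusted p = 0.264 over genes) with SPI. The signalling receptor Il1r1, with 3 probe sets, passed in no comparison against CAS. Il1rn, the interleukin-1 receptor antagonist, changed by 0.23, 0.059 and 0.047 with SPI, E2 and SPI+E2, and did not pass.

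Il10ra, the ligand-binding chain for interleukin-10, fell by 0.29 ± 0.076 with E2 in 1 of 2 probe sets (adjusted p = 0.0344). This call was lost without any 1 CAS array, E2 2 or E2 3. Il7r, needed for lymphocyte development, fell by 0.60 ± 0.14 with SPI+E2 in probe set 1386052_at (adjusted p = 0.0245). This probe set read 0.07, 0.22 and 0.11 with CAS, -0.00, 0.17 and 0.24 with SPI, -0.21, -0.43 and 0.00 with E2, and -0.36, -0.82 and -0.22 with SPI+E2. SPI+E2 2 was by far the lowest array, and the call was lost without it or without any 1 CAS array. The other Il7r probe set (1382566_at) changed by 0.029 ± 0.097 (adjusted p = 0.892) with SPI+E2, and in it SPI was higher than E2 by 0.41 (adjusted p = 0.014). Among 14 T and NK cell markers, 4 were lower with E2, where 14.2% of all genes passed. With SPI+E2, 2 were higher and 3 lower, where 12.9% of all genes passed. Their list means ran from -0.16 to -0.077 with E2 and from 0.0023 to 0.052 with SPI+E2, against -0.010 to 0.027 with CAS. Of 4 B cell markers, 3 were lower with E2 and 3 with SPI+E2. Of 5 neutrophil markers, 3 were lower with E2 and 3 higher with SPI+E2. Of 10 macrophage and monocyte markers, 1 was lower with E2 and 3 higher with SPI+E2. The part of these lists in the Il10ra and Il7r values was not tested.

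The interleukin-6 family shares the signalling chain gp130, encoded by Il6st. Of its 4 probe sets, 1 (1373140_at) rose by 0.22 ± 0.058 (adjusted p = 0.0349) with E2, a call lost without any 1 CAS array, E2 1 or E2 3, and all 4 had a change above 0 with E2. Il6r, the interleukin-6 binding chain, was higher in SPI+E2 than in E2 by 0.27 ± 0.074 (adjusted p = 0.0387). Il11ra1, the interleukin-11 binding chain, was lower in SPI than in E2 by 0.25 (adjusted p = 0.00665) and passed in no comparison against CAS. Il1rl2, the receptor of interleukin-36, rose by 0.31 ± 0.085 (adjusted p = 0.0452) with SPI+E2, a call lost in 12 of 21 alternatives, among them any CAS or SPI+E2 array left out.

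**Figure D4:**
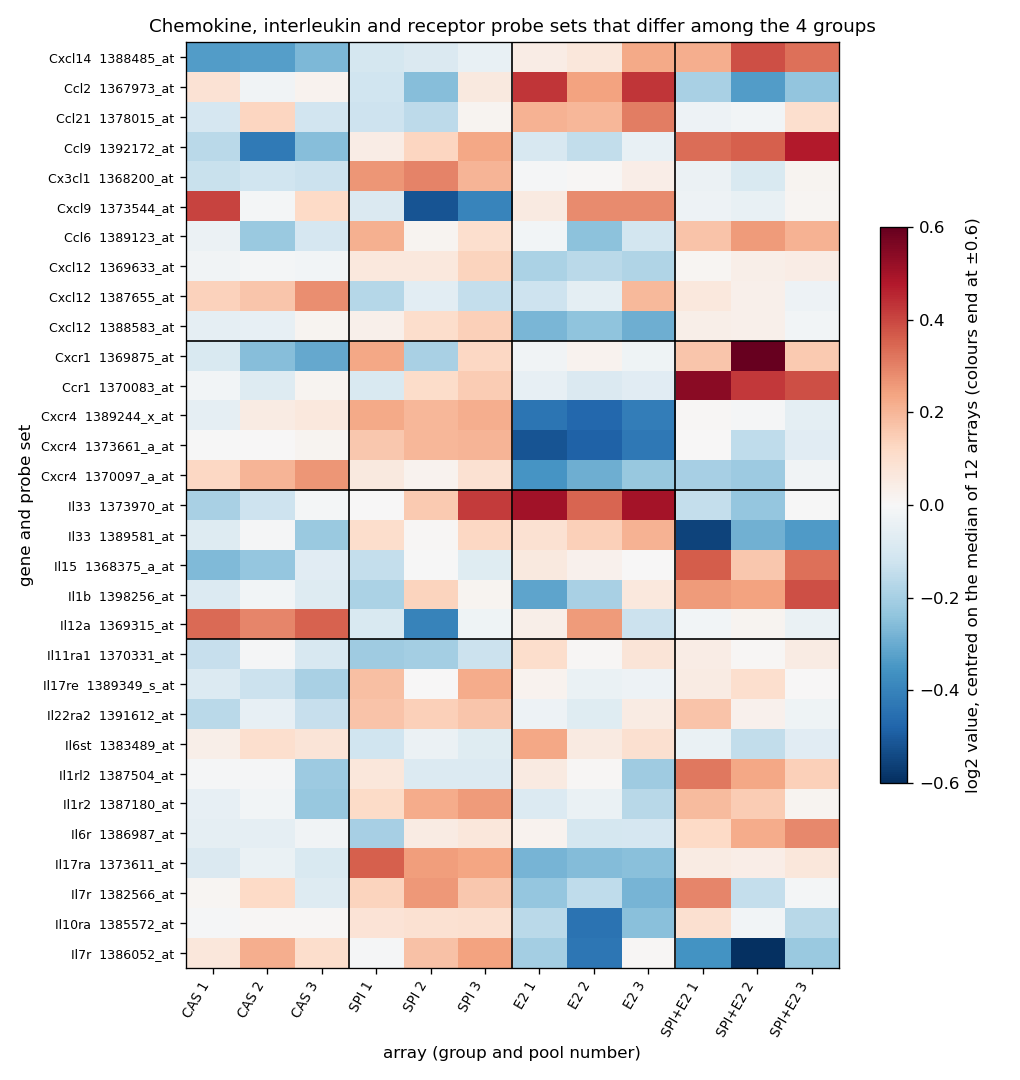
Centred log2 value (colour, ending at ±0.6) of the 31 probe sets that differed among the 4 groups (rows, ordered by role with lines between roles) on each of the 12 arrays (columns). The E2 block is dark blue for the 3 rows of Cxcr4 at -0.52 to -0.23, and the SPI+E2 block is dark red for Ccl9 and Ccr1, which read 0.34 to 0.54.

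The difference between SPI and E2 does not use the mean of the CAS arrays, though its error does use their spread. SPI was higher than E2 in 12 of 117 probe sets (10.3%, against 7.98% of all probe sets) and lower in 5 (4.27%, against 8.75%), which stand for 14 genes together. In a fit of the SPI and E2 arrays alone 16 passed, 15 of them among these 17. The largest differences were those of Cxcr4 (0.66 and 0.65), Il17ra (0.54), Cxcl9 (-0.54) and Ccl2 (-0.47). Cxcr4 was higher in SPI in all 3 probe sets, in 1370097_a_at by 0.35 ± 0.063 (adjusted p = 0.00295). No interleukin was among the 17 (0 of 26 in limma's test, with 4 at an unadjusted p under 0.05).

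Estradiol was given on both diets, so its change on SPI can be set against its change on casein. Adding E2 to SPI moved 12 of 117 probe sets past the test (10.3%, against 11.4% of all probe sets), 6 higher and 6 lower. Adding SPI to E2 moved 15 (12.8%, against 10.5%), 11 higher and 4 lower. The interaction, which is the change with SPI+E2 minus the sum of the changes with SPI and with E2, passed in 5 of 117 (4.27%, against 9.92%). It was negative in both probe sets of Il33 (-0.88 ± 0.14, adjusted p = 0.00162, and -0.72 ± 0.11, adjusted p = 0.000995), in Ccl2 (-0.49 ± 0.12, adjusted p = 0.018) and in Cx3cl1 (-0.43 ± 0.066, adjusted p = 0.00112), and positive in Ccr1 (0.44 ± 0.095, adjusted p = 0.0112). The Ccl2 value missed the test without E2 1. For Cxcr4 the interaction was 0.22 ± 0.071 (adjusted p = 0.0802), 0.23 ± 0.067 (adjusted p = 0.0532) and 0.29 ± 0.090 (adjusted p = 0.071) in its 3 probe sets, none of which passed. In their mean it was 0.24 ± 0.058 (adjusted p = 0.0137 over genes), which did pass. The mean of the Cxcl12 probe sets passed as well (0.20 ± 0.058, adjusted p = 0.0357 over genes). Other calls that a mean per gene changed are given in the closing section on processing.

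Of 48 ligand and receptor pairs listed, 33 had both genes measured. Both genes differed among the groups in 3 pairs (Cxcl12 with Cxcr4, and Ccl6 and Ccl9 with Ccr1), 1 gene of the pair in 10 and neither in 20. A gene counted if any of its probe sets passed the F test, as 25 of the 92 genes did. Cxcl12 and Cxcr4 have 3 probe sets each, and the pairs of Ccl6 and Ccl9 share Ccr1. Whether the count of pairs exceeds what these shares would give was not tested.

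Several of these genes lie side by side in the genome. In the order of protein-coding genes on GRCr8, 43 of the 92 fell into 14 runs, with neighbouring members at most 3 places apart. Beside Ccl9 and Ccl6, which both passed with SPI+E2 at the gene level (0.67 and 0.33), Ccl5, Ccl3 and Ccl4 changed by 0.29, 0.26 and -0.16. In the run of interleukin-1 receptors, Il1r2 rose with SPI (0.30) while Il1r1, Il1rl2 and Il1rl1 changed by 0.0034, 0.045 and 0.0012. Cx3cl1 rose with SPI (0.38) while Ccl17 and Ccl22 on either side changed by 0.16 and 0.043. Cxcr2, beside Cxcr1, changed by 0.21 with SPI+E2 and did not pass.

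Of the 17 genes with more than 1 probe set, Cxcr4 was the 1 whose probe sets all passed in a comparison against CAS, which they did with E2. Cxcl12 had 2 of 3 lower with E2. Cxcl14, Cxcl9, Il10ra, Il17re, Il33, Il6st, Il7 and Il7r passed in 1 of their probe sets in the comparisons where they passed, and Cxcl3 (5 probe sets), Il1r1 (3), Ccl22, Cxcr5, Il1a, Il1rap and Il1rl1 (2 each) passed in none.

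Some chemokine genes lie outside the symbol rule. Of 8 such genes and atypical receptors, the platelet chemokines Pf4 and Ppbp fell in all 3 comparisons, Pf4 by 0.60, 0.93 and 0.28 and Ppbp by 1.29, 1.40 and 0.71 with SPI, E2 and SPI+E2. Ackr3, the scavenging receptor of Cxcl12, fell by 0.42 with SPI (adjusted p = 8.19e-05) and changed by 0.13 (adjusted p = 0.113) with E2. Megakaryocyte and platelet markers were lower too, 4 of 6 with SPI, 6 of 6 with E2 and 2 of 6 with SPI+E2, where 1 was higher. Of all genes, 25.4%, 14.2% and 12.9% passed in these comparisons. The markers' list means ran from -0.10 to -0.024, -0.42 to -0.33 and 0.11 to 0.17 against 0.27 to 0.31 with CAS. Their part in the falls of Pf4 and Ppbp was not tested.

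Genes that carry the signal inside the cell were read against the shares of all genes that passed in either direction (25.4%, 14.2% and 12.9% for SPI, E2 and SPI+E2). Of 14 JAK, STAT and SOCS genes measured, 1 fell with SPI (Jak2, by 0.17), 1 rose and 1 fell with E2 (Stat3 by 0.15 and Stat4 by 0.38), and 1 fell with SPI+E2 (Jak2, by 0.19). The list's median change was 0.050, -0.030 and -0.016. Of 15 genes of the NF-kB and MyD88 pathway, which act below the interleukin-1 and Toll-like receptors, 2 rose with SPI (Myd88 by 0.20 and Irak3 by 0.14), 1 fell with E2 (Myd88, by 0.12) and 2 rose with SPI+E2 (Irak3 by 0.21 and Nfkbia by 0.18). Its median change was -0.050, -0.076 and 0.078, and the median of all genes was -0.010, -0.010 and 0.0048. Irak3 and Nfkbia are inhibitors of the pathway.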

How the data were processed

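RNA of female rat tibia was hybridised to 12 Affymetrix rat arrays, 3 pools in each of 4 groups, which were taken from the sample labels. GCOS and RMA stand in the submitters' processing notes without a version, and the log2 values that the authors deposited had also been through GeneSpring, per chip and then per gene. Over the 12 arrays every probe set therefore has a median of 0. The base of the logarithm is not given in the table and was taken as 2. Signal over background cannot be read from centred values, and 3 arrays a group limit the precision.

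Of 31099 probe sets, 57 controls were left out. A single symbol was given for 20826, several for 436 (2 of them with a symbol that fits the rule, left out) and none here for 9780. All 117 members were found in the current gene table (GRCr8), with 0 symbols changed. All 4 groups entered 1 linear model in limma 3.58.1 (R 4.3.3, statmod 1.5.0), with Benjamini-Hochberg adjustment across the 31042 probe sets. Marker and pathway lists used the mean of the probe sets of a gene, adjusted over 14217 genes. An adjusted p under 0.05 passed. Errors are SE of the difference. The steps were tested on simulated data.

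Named were the members past the test in each comparison with CAS (up to 12 each way), the 5 largest for SPI against E2 and for the interaction, both genes of pairs of which at least 1 differed, and up to 4 genes of each list. The members, lists and tests were chosen with earlier results of these data known. Of the 48 pairs, 15 had a gene not measured here. Further list counts, some also given above, follow, where 25.4%, 14.2% and 12.9% of all genes passed with SPI, E2 and SPI+E2. Of 7 chondrocyte markers 7, 4 and 7 were lower with SPI, E2 and SPI+E2. Of 8 skeletal muscle markers 5 were lower with SPI, and 1 was higher with E2 and with SPI+E2. Of 7 mast cell and eosinophil markers 1 was lower with E2 and 1 with SPI+E2. Of 5 osteoclast markers 2 were higher and 1 was lower with SPI, and 1 was lower with E2. Of 10 macrophage and monocyte markers 1 was lower with SPI and 1 with E2. Of 6 endothelial markers 1 was lower with E2 and 1 was higher with SPI+E2, of 4 B cell markers 3 were lower with SPI+E2, and of 14 T and NK cell markers 0 passed with SPI by limma (1 at an unadjusted p under 0.05).

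Alternatives were a block by pool number, quantile normalization, a fit of 2 groups, arrays centred on their median, weights on arrays, robust variances, unadjusted p, the mean over the probe sets of a gene, analysis of variance without moderation, natural logarithms, linear means, and each array left out in turn.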

Additional observations from a re-analysis of the deposited data

Results flagged for a closer look

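The change with SPI+E2 minus the sum of the changes with SPI and with E2 passed the test of that difference in 5 probe sets. It contains the mean of the CAS arrays, which stood apart in sex-linked genes, and the part of this in the values cannot be told apart from the treatments. It was -0.88 for Il33 probe set 1373970_at and -0.72 for Il33 probe set 1389581_at, where the E2 changes were 0.56 ± 0.10 (adjusted p = 0.00337) and 0.25 ± 0.077 (adjusted p = 0.0702) on casein and -0.32 ± 0.10 (adjusted p = 0.0639) and -0.47 ± 0.077 (adjusted p = 0.00176) on SPI, so the rise in the first and the fall on SPI in the second passed and the other pair did not. It was -0.49 for Ccl2, whose E2 change was 0.34 on casein and -0.15 on SPI. For Cx3cl1 it was -0.43, with E2 changes of 0.14 and -0.29. Ccr1 gave 0.437, with E2 changes of -0.044 and 0.39. The share of members that passed was 4.27%, below the 9.92% of all probe sets.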

How the results depend on the processing

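Of 49 results for a named probe set, 25 passed the test under every alternative, 24 missed it under at least 1, and 0 changed direction. A block by pool number gave 16 probe sets with SPI (15 without the block), 11 with E2 (13), 12 with SPI+E2 (11), 20 for SPI against E2 (17), 6 for the interaction (5) and 26 for any difference (31). Correlations of the deviations of arrays with the same pool number ran from -0.0741 to 0.0305 for number 1 and from -0.0736 to 0.142 for number 2. For number 3 they ran from 0.0573 to 0.244, with 3 of 6 pairs over 0.1. Of the 12 arrays, 4 were closest to their own number. What else arrays of the same number share is not given by the labels and was not tested.

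A fit of the 2 groups gave 8 with SPI. A mean per gene, adjusted over genes, gave 11, 12 and 12 of 92 genes with SPI, E2 and SPI+E2. Il33 then passed with SPI, Ccl3, Cx3cl1, Il15 and Il34 with E2, and Ccl2, Il12a and Il6r with SPI+E2. For the interaction Cxcl12 and Cxcr4 were added. Cxcl12, Cxcl14, Cxcr4 and Il17re no longer passed with SPI, Il10ra and Il7 with E2, and Il33 and Il7r with SPI+E2. Array weights gave 21 with E2 and 8 for the interaction. Analysis of variance without moderation gave 7 with SPI+E2 and 8 for the interaction. At an unadjusted p under 0.05 the counts were 28 with SPI, 31 with E2, 31 with SPI+E2, 37 for SPI against E2 and 22 for the interaction. At 1.5-fold, quantile normalization gave 1 with E2, a mean per gene gave 1 with SPI+E2 (3 otherwise), and natural logarithms gave 4, 5 and 6 with SPI, E2 and SPI+E2. The cause was not tested.

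With each array left out in turn, counts ran from 8 to 15 with SPI, 7 to 14 with E2, 6 to 13 with SPI+E2, 12 to 19 for SPI against E2, 5 to 7 for the interaction and 22 to 28 for any difference, and at 1.5-fold from 0 to 1, 0 to 1 and 1 to 4. The count with SPI was 9 without CAS 1 and 8 without CAS 3. With E2 it was 7 without each of CAS 1, CAS 2 and CAS 3 and 8 without E2 1. With SPI+E2 it was 7 without CAS 1 and 6 without CAS 2, CAS 3 or SPI+E2 2. With 3 pools a group, centred values and no probe intensities used here, low and absent signals cannot be separated.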

Other observations

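Colony-stimulating factors and relatives of interleukin-6 outside the symbol rule gave 17 measured genes. With SPI+E2, 3 rose and 0 fell, where 12.9% of all genes passed. They were the receptors Csf2ra (for GM-CSF) by 0.44 (adjusted p = 0.011), Csf3r (G-CSF) by 0.38 (adjusted p = 0.0201) and Csf1r (M-CSF) by 0.15 (adjusted p = 0.0253), in limma's fit per gene. Csf2rb, the shared beta chain of the GM-CSF receptor, changed by 0.14 (adjusted p = 0.412). Cntf, a neurotrophic cytokine of Schwann cells, rose by 0.76 (adjusted p = 3.29e-05) with E2 and by 0.39 (adjusted p = 0.00313) with SPI, and changed by -0.25 (adjusted p = 0.0518) with SPI+E2. Tslp, an epithelial and stromal cytokine that acts through the interleukin-7 receptor chain, fell by 0.59 with SPI. Epor, the erythropoietin receptor, fell by 0.27 with E2. The medians of the 17 changes were 0.053, -0.016 and 0.092 with SPI, E2 and SPI+E2.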
